A study of Mus musculus with 20 samples.

Results

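Chemokines and their receptors were followed in the brains of mice exposed to the HIV-1 protein Tat, to methamphetamine (Meth), or to both. The genes were chosen by symbol, and no measured value entered that rule, though earlier results of these data were known when it was set. Every mouse gene on the array named Ccl, Cxcl, Ccr or Cxcr followed by a digit was taken, together with Cx3cl1, Xcl1, Xcr1, Ackr1, Ackr2 and Ackr3. This gave 55 genes of 20972 with a symbol on the array, 26 of which were bright enough to be tested among 15102 genes. Where a gene had several probes, the brightest stood for it.

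The study profiled 20 male mice of a C57BL/6J background, 5 per group, on Agilent 1-colour arrays, with 1 mouse per array. Tat− mice carried only the tetracycline-binding regulator under the GFAP promoter, which is active mainly in astrocytes, and Tat+ mice carried in addition the TRE promoter-Tat transgene. All mice, controls included, were given doxycycline at 100 mg/kg once a day for 7 days, which switches Tat on in Tat+ animals. The Meth groups of each genotype were injected with 2 mg/kg Meth on 7 days (Tat−/Meth, Tat+/Meth), and the saline groups with vehicle (Tat−/Sal, Tat+/Sal). The labels give an age of 6 to 7 weeks, a perfused left hemisphere as the sample and killing on the day after the last injection. The study's methods instead give older animals, dissected caudate putamen, and a period of abstinence closed by a Meth challenge in every mouse, so that the saline groups would also have met Meth. Each of 10 marker genes of striatal neurons was well above background on all 20 arrays. The Tat transcript itself was not analysed here, so the genotype labels could not be checked on it.

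Chemokines are small secreted proteins that guide migrating cells through G protein-coupled receptors. The CC and CXC ligands are named for the spacing of their first cysteines. In the healthy brain a few are made constantly, such as the neuronal Cx3cl1, which signals to microglia, and Cxcl12, which guides and positions neural and blood cells. Others, such as Ccl2, Ccl5 and Cxcl10, are low at rest and are induced by cytokines, interferons or infection, when they draw monocytes and T cells. Atypical receptors bind chemokines without classical signalling and shape how much ligand is available.

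The 5 Tat−/Meth arrays were hybridised on a slide of their own, and this slide and the Tat−/Meth group cannot be told apart. Another slide held the 5 Tat−/Sal arrays with 3 Tat+/Meth arrays, and the last held 2 Tat+/Meth and 5 Tat+/Sal arrays. The bright control spots in the corners read 14.7 to 15.1 (log2) on the Tat−/Meth slide and 16.8 to 17.4 on the others. From 55.3% to 70.9% of all probes were well above background per array. All values below are log2 signal scaled to each array's 75th percentile, differences are log2 fold changes, and signal is not comparable between probes of different genes. A gene was called where limma gave an adjusted *p* under 0.05 and the change was above 2-fold. The adjusted *p* measures the spread between mice of a group. Whole tissue was profiled, so fewer cells of a type and less RNA per cell cannot be told apart.

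The probes of 19 of the 55 genes were well above background on all 20 arrays, those of 10 on no array, those of 10 on a single array, and those of 16 on 2 to 19 arrays. Among the 20 CC ligands, Ccl6, Ccl8, Ccl9, Ccl17, Ccl19, Ccl25 and Ccl27a were seen on all arrays, and Ccl1 and the eosinophil attractant Ccl11 on none. Of the 12 CXC ligands, Cxcl12, Cxcl14 and Cxcl16 were seen on all arrays. The neutrophil attractants Cxcl1, Cxcl2 and Cxcl3 were seen on none, nor were Cxcl15 and Cxcl17. Cx3cl1 was seen on all arrays and Xcl1 on 1.

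Among the 11 CC receptors, Ccr6, Ccr7, Ccr8 and Ccr10 were well above background on all 20 arrays, while Ccr1 and Ccr2, receptors of monocytes and macrophages, were on none. No CXC receptor was seen on every array. Cxcr4 was on 16, and Cxcr5, the B cell homing receptor, was seen on none. The 3 atypical receptors Ackr1, Ackr2 and Ackr3 were seen on all. Of the 26 genes tested, 7 were not detected on every array, and these were Ccl2, Ccl3, Ccl5, Ccl12, Ccl28, Cxcl10 and Cxcr4. A further 29 genes were not tested.

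**Figure D1:**
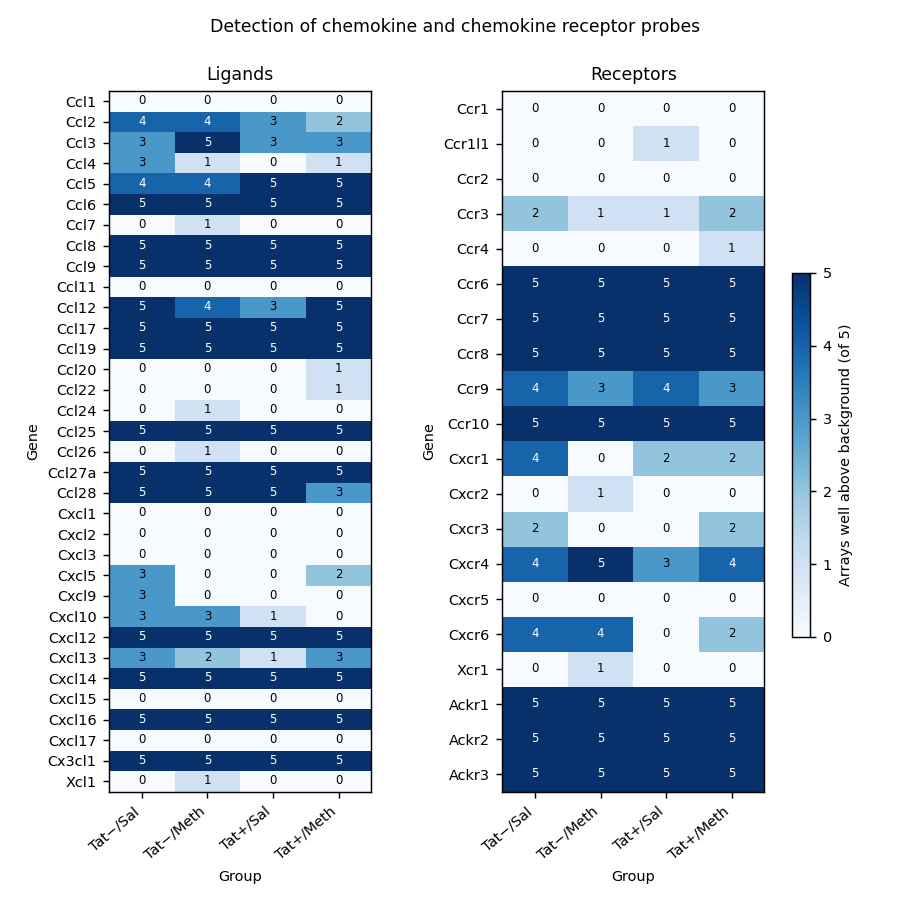
Detection of the genes reported, ligands on the left and receptors on the right. Each cell gives the number of arrays of a group, of 5, on which the probe was well above background (colour from 0 to 5). Genes such as Cx3cl1 and Ackr1 were at 5 in all groups and Ccr2 at 0 in all groups.

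Of the 10 genes seen on a single array, 5 were seen on the same array, Tat−/Meth replicate 5. There Ccl24 read 7.17, Ccl7 6.67, Cxcr2 7.47, Xcl1 6.62 and Xcr1 6.65. That array also had the highest share of probes well above background, 70.9%, whose part in these values was not tested. The others were Ccl26 at 6.53 on Tat−/Meth replicate 4, Ccr1l1 at 7.23 on Tat+/Sal replicate 2, and, in Tat+/Meth, Ccl20 at 6.01 on replicate 1, Ccr4 at 6.48 on replicate 2 and Ccl22 at 7.85 on replicate 4. None of these 10 was tested. Across arrays, 21 to 35 of the 55 genes were well above background.

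The constantly made ligands varied little. Cx3cl1 (fractalkine), the neuronal ligand that signals to microglia, read 16.70, 16.87, 16.76, 16.77 and 17.01 in Tat−/Sal and 16.64, 16.65, 16.64, 16.68 and 16.68 in Tat−/Meth. It read 16.85, 16.91, 17.08, 16.70 and 16.92 in Tat+/Sal and 16.76, 16.82, 17.00, 16.67 and 17.05 in Tat+/Meth. The Tat−/Meth values all lay below those of Tat−/Sal, but by a mean difference of −0.17 (SE 0.0785) that missed the threshold (limma, adjusted *p* = 0.0829). Its receptor on microglia, Cx3cr1, differed by 0.20 in the same comparison (adjusted *p* = 0.0673).

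Cxcl12, the ligand of CXCR4 and ACKR3, read 12.27, 12.74, 12.41, 12.51 and 12.49 in Tat−/Sal, 12.74, 12.65, 13.21, 12.25 and 12.52 in Tat−/Meth, 12.29, 12.70, 12.30, 12.34 and 12.59 in Tat+/Sal, and 12.08, 12.22, 12.35, 12.37 and 12.94 in Tat+/Meth. The groups overlapped throughout. Cxcl14, a homeostatic ligand also made by neurons, read 14.07, 14.17, 14.38, 14.26 and 14.31 in Tat−/Sal and 14.57, 14.62, 14.55, 14.65 and 14.40 in Tat−/Meth. In Tat+/Sal it read 14.43, 14.23, 14.28, 14.33 and 14.20, and in Tat+/Meth 14.13, 14.27, 14.25, 14.16 and 14.26. Every Tat−/Meth value of Cxcl14 was above every Tat−/Sal and Tat+/Meth value.

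Ccl27a, known as a skin chemokine and ligand of CCR10, read 14.44, 14.47, 14.31, 14.47 and 14.56 in Tat−/Sal and 14.57, 14.61, 14.63, 14.68 and 14.74 in Tat−/Meth. It read 14.26, 14.45, 14.32, 14.10 and 14.04 in Tat+/Sal and 14.36, 14.38, 14.55, 14.16 and 14.45 in Tat+/Meth. Tat−/Meth was the highest group without overlap with the other groups. Near-identical copies of Ccl19 and Ccl27a lie close together in the mouse genome, so the source of their signal is uncertain.

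The effect of Tat alone was asked by comparing Tat+/Sal with Tat−/Sal. None of the 26 genes was called, and 0.0199% of all genes tested were. None reached an adjusted *p* under 0.05 either, against 1.42% of all genes, and 5 of the 26 had an unadjusted *p* under 0.05, against 3094 of 15102 genes. These 5 were Ccr8 (−0.51, adjusted *p* = 0.107), Ccr7 (−0.66, 0.149), Ccl27a (−0.22, 0.135), Ccl25 (−0.29, 0.142) and Cxcl10 (−2.04, 0.235), which only 1 Tat+/Sal array showed well above background. With slide as a random block, Ccr8, Ccr7, Ccl27a and Ccl25 had adjusted *p* values of 0.0198, 0.025, 0.0207 and 0.025, all under 2-fold. The within-slide correlation of that fit was negative, at −0.0623, which makes a difference between slides look more precise. These lower values are therefore no allowance for slide. No slide held both groups, and with slide as a fixed block the adjusted *p* of Ccr8 was 0.891.

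For genes well known in brain, 95% intervals of the Tat difference were taken from the fit without a slide term. They reflect the spread between mice only. The monocyte attractant Ccl2 differed by −0.35 (−1.11 to 0.40) and Ccl3, a macrophage inflammatory protein, by 0.11 (−0.66 to 0.89). Cxcr4, the receptor of Cxcl12, differed by 0.16 (−0.63 to 0.95). Narrower intervals were found for Cx3cl1, at 0.07 (−0.10 to 0.23), Cxcl12, at −0.04 (−0.38 to 0.30), and Ackr3, at 0.02 (−0.22 to 0.26). A 2-fold difference lies outside the intervals of Ccl3, Cxcr4, Cx3cl1, Cxcl12 and Ackr3, and inside that of Ccl2. As Tat−/Sal and Tat+/Sal shared no slide, the intervals cannot exclude a 2-fold effect of Tat apart from slide. Ccl3 was well above background on 3 of 5 arrays in each saline group. Cxcr4 was so on 4 in Tat−/Sal and 3 in Tat+/Sal. Wider intervals were found for Ccl5, at −0.72 (−2.27 to 0.83), and Cxcl10, at −2.04 (−4.03 to −0.04), and both hold a 2-fold fall.

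**Figure D2:**
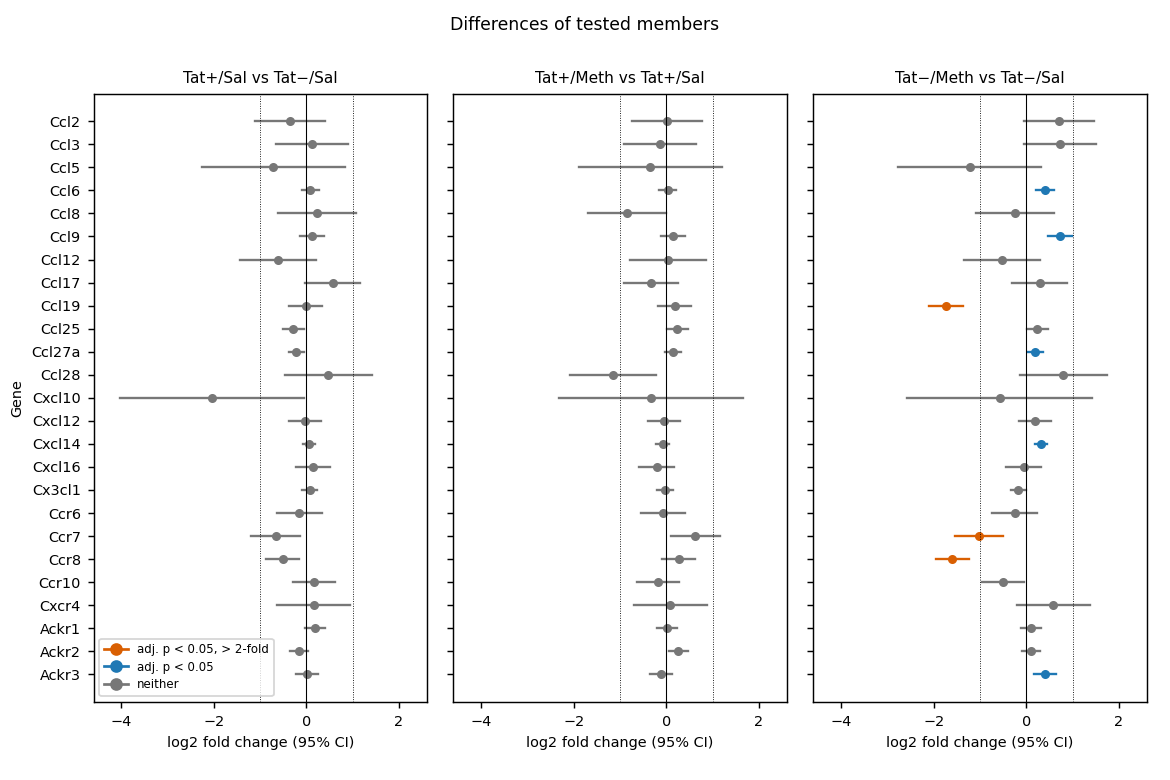
Log2 fold changes of the tested genes reported, in 3 comparisons. Points are estimates, lines 95% confidence intervals, dotted lines 2-fold, and colours show the calls. No gene was called for Tat+/Sal vs Tat−/Sal or for Tat+/Meth vs Tat+/Sal, whereas Ccl19, Ccr7 and Ccr8 were called lower for Tat−/Meth vs Tat−/Sal. The probe of Cxcl10 rose clearly over background on none of the Tat+/Meth arrays, so its point for Tat+/Meth is no measured size.

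Meth in the presence of Tat was examined by comparing Tat+/Meth with Tat+/Sal, where no gene on the whole array was called (0%). Unadjusted *p* values were under 0.05 for 5 of the 26 genes and 1838 of 15102. They were the scavenging receptor Ackr2 (0.26, adjusted *p* = 0.292), Ccl28 (−1.16, 0.312), Ccr7 (0.62, 0.336), Ccl25 (0.24, 0.38) and Ccl8 (−0.85, 0.402). Between Tat+/Meth and Tat−/Sal no gene was called either (0%), and 2 of the 26 had an unadjusted *p* under 0.05, against 1177 of all genes. These were Ccl9 (0.27) and Cxcl10, which no Tat+/Meth array showed well above background, both with an adjusted *p* of 0.640.

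The calls for chemokine genes came from the comparisons that hold Tat−/Meth. These comparisons share arrays with each other, so their values stand side by side and are not separate evidence. To see Meth without Tat, Tat−/Meth was set against Tat−/Sal, and 3 of the 26 genes were called, all lower, where 6.48% of all genes were called lower and 0.371% higher (6.85% in all). They were Ccl19 and its receptor Ccr7, known for bringing T cells and dendritic cells into lymph nodes, and Ccr8, a receptor of regulatory and type 2 T cells.

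Ccl19 read 10.42, 10.53, 11.03, 10.51 and 11.24 in Tat−/Sal and 8.62, 8.99, 8.94, 8.93 and 9.57 in Tat−/Meth. It read 10.73, 10.63, 10.77, 10.71 and 10.78 in Tat+/Sal and 11.01, 11.16, 10.97, 10.45 and 10.92 in Tat+/Meth. All 5 Tat−/Meth values lay below all 15 others. The group means were 10.74 ± 0.365 (SD, n = 5), 9.01 ± 0.345, 10.72 ± 0.0596 and 10.90 ± 0.267 in the same order. Ccl19 fell by 1.73 on the log2 scale in Tat−/Meth vs Tat−/Sal (SE 0.171, limma adjusted *p* = 1.89e-07).

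Ccr8 read 8.31, 8.17, 8.44, 8.19 and 8.49 in Tat−/Sal, 6.64, 6.59, 6.34, 6.85 and 7.18 in Tat−/Meth, 8.30, 7.65, 8.20, 7.53 and 7.38 in Tat+/Sal, and 8.27, 8.10, 7.87, 7.95 and 8.20 in Tat+/Meth. Again no Tat−/Meth value overlapped another group. The difference from Tat−/Sal was −1.60 (SE 0.17, adjusted *p* = 4.53e-07). A second Ccr8 probe was well above background on 0 arrays and gave no reading.

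Ccr7 read 8.17, 8.30, 7.24, 7.28 and 8.70 in Tat−/Sal and 6.97, 6.57, 7.08, 7.11 and 6.86 in Tat−/Meth. It read 7.07, 7.20, 7.25, 7.52 and 7.33 in Tat+/Sal and 8.52, 8.15, 7.46, 7.93 and 7.42 in Tat+/Meth. Tat−/Meth lay below Tat−/Sal without overlap but touched the range of Tat+/Sal, and the Tat−/Sal values were spread widely. The difference from Tat−/Sal was −1.02 (SE 0.251, adjusted *p* = 0.00258), just past 2-fold. Without Tat−/Sal replicate 5 it was −0.83, and it also fell under 2-fold without Tat−/Sal replicate 1 (−0.96), Tat−/Sal replicate 2 (−0.93) or Tat−/Meth replicate 2 (−0.93).

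**Figure D3:**
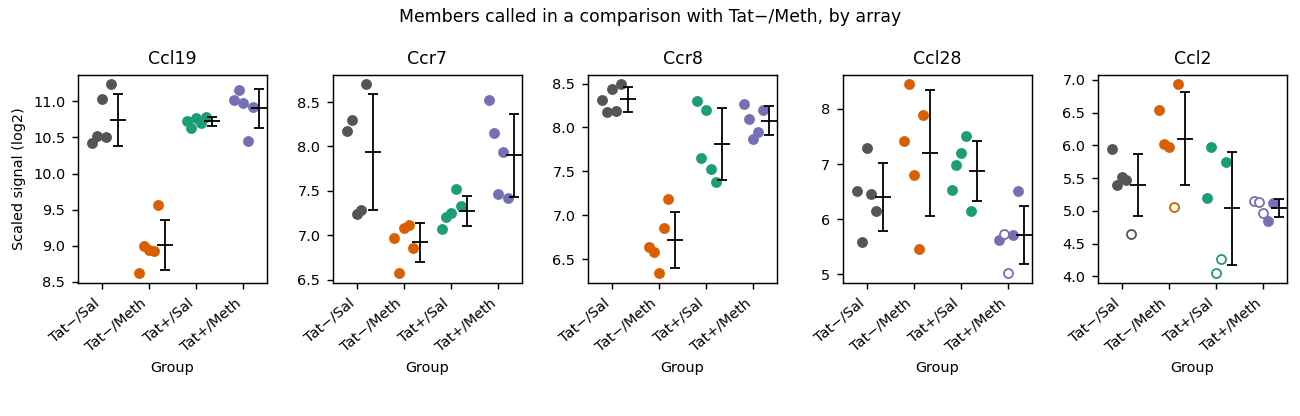
Scaled log2 signal of the 5 genes called in a comparison with Tat−/Meth, by group. Each point is an array, open where the probe was not well above background, and the bars give the mean ± SD. Ccl19 and Ccr8 lay lower on each of the 5 Tat−/Meth arrays than on any other array, and Ccl2 and Ccl28 overlapped between groups.

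The probes of Ccl19 did not move together. All 3 were well above background on all 20 arrays. From Tat−/Sal to Tat−/Meth the brightest changed by −1.73, the second by −0.37 and the third by 0.51. From Tat−/Meth to Tat+/Meth they changed by 1.89, 0.18 and −0.45. With the mean over its probes, Ccl19 differed by −0.53 between Tat−/Meth and Tat−/Sal (adjusted *p* = 0.0044) and was no longer called. The probes of Ccl27a gave 0.20, 0.67 and 0.13 for Tat−/Meth vs Tat−/Sal, and those of Cxcl12 0.19 and −0.17.

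**Figure D4:**
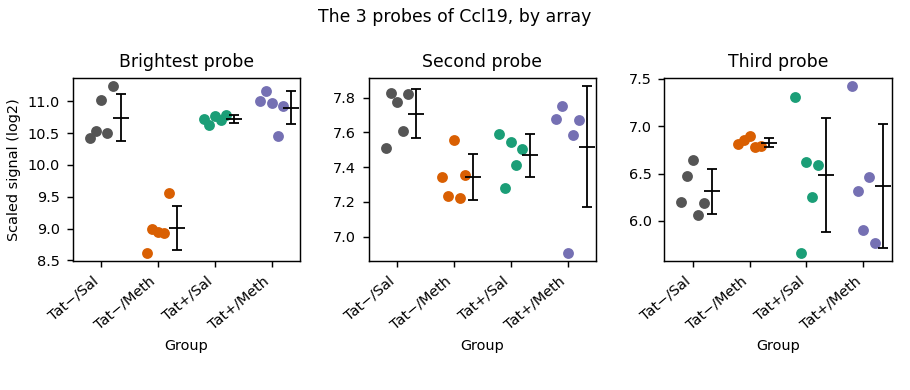
Scaled log2 signal of the 3 probes of Ccl19 on each array, by group, with mean ± SD as bars. The brightest probe had a mean of 9.01 in Tat−/Meth and 10.74 in Tat−/Sal, and the third had 6.82 and 6.31.

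By adjusted *p* alone, 5 of the 26 genes were higher in Tat−/Meth and 3 lower, where 35% of all genes were higher and 15.3% lower (50.2% in all). The median difference was 0.14 over all genes and 0.147 over the 26. The CCR1 ligands Ccl9 and Ccl6, made by myeloid cells, differed by 0.72 (SE 0.123, adjusted *p* = 0.000104) and 0.40 (SE 0.0882, 0.000978). Cxcl14 differed by 0.32 (SE 0.0641, 0.000464), Ackr3 by 0.41 (SE 0.113, 0.0057) and Ccl27a by 0.20 (SE 0.0789, 0.0455). With no scaling of the arrays, which moved the median of all genes to −0.285, Ccl6, Cxcl14, Ackr3 and Ccl27a turned to −0.02, −0.10, −0.01 and −0.22, and Ccl9 stayed higher at 0.30. In all, 5 genes had every Tat−/Meth value above every Tat−/Sal value (Ccl6, Ccl9, Ccl25, Ccl27a and Cxcl14) and 4 had every value below (Ccl19, Ccr7, Ccr8 and Cx3cl1), against 24.7% and 11.5% of all genes.

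Ackr3, the atypical receptor that removes Cxcl12, read 9.23, 9.13, 9.40, 9.50 and 9.34 in Tat−/Sal and 9.92, 9.43, 9.74, 9.75 and 9.80 in Tat−/Meth, with a slight overlap. It read 9.24, 9.30, 8.98, 9.50 and 9.67 in Tat+/Sal and 9.11, 9.23, 9.37, 9.13 and 9.31 in Tat+/Meth. Ackr1, which holds chemokines on venules and red cells, read 12.36, 12.46, 12.53, 12.48 and 12.81 in Tat−/Sal, 12.52, 12.65, 12.67, 12.59 and 12.73 in Tat−/Meth, 12.51, 12.75, 12.78, 12.53 and 12.95 in Tat+/Sal, and 12.56, 12.53, 12.89, 12.61 and 13.01 in Tat+/Meth. Its groups overlapped, with a difference of 0.11 (SE 0.105, adjusted *p* = 0.415) for Tat−/Meth vs Tat−/Sal.

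The Cxcl12 receptor Cxcr4 passed the adjusted *p* in no comparison. It read 6.40, 5.98, 4.90, 5.96 and 4.86 in Tat−/Sal, 5.99, 6.02, 5.70, 5.85 and 7.48 in Tat−/Meth, 5.79, 6.32, 5.11, 5.59 and 6.09 in Tat+/Sal, and 4.78, 5.92, 6.31, 6.10 and 6.20 in Tat+/Meth. Its groups overlapped, and the difference of Tat−/Meth from Tat−/Sal was 0.59 (SE 0.376, adjusted *p* = 0.202). Cxcr4, too, entered the test only through Tat−/Meth, with a mean of 6.21 against 5.62 to 5.86 in the other groups. That mean held replicate 5 at 7.48.

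Tat in the context of Meth was asked by comparing Tat+/Meth with Tat−/Meth. Of the 26 genes, 2 were called higher, where 6.75% of all genes were, and 2 lower, where 0.470% were (7.22% in all). Ccl19 was higher by 1.89 (adjusted *p* = 5.58e-08) and Ccr8 by 1.36 (2.91e-06). The lower ones were Ccl28, a mucosal chemokine and ligand of CCR10, and Ccl2.

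Ccl28 read 7.41, 8.45, 6.81, 5.46 and 7.89 in Tat−/Meth and 5.62, 5.74, 5.02, 5.71 and 6.51 in Tat+/Meth, where 3 of 5 arrays were well above background. In Tat−/Sal it read 6.52, 5.59, 7.30, 6.46 and 6.15, and in Tat+/Sal 6.53, 6.99, 7.20, 7.51 and 6.14. Tat+/Meth was the lowest group, though Tat−/Meth replicate 4 lay within its range. Ccl28 fell by 1.49 on the log2 scale (SE 0.446, limma adjusted *p* = 0.00896). With the methods' t-test after adjustment the *p* was 0.0587 and the call was lost.

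Ccl2, which draws monocytes through CCR2, read 6.54, 6.02, 5.97, 5.05 and 6.93 in Tat−/Meth and 5.15, 5.14, 4.97, 4.84 and 5.12 in Tat+/Meth. It read 5.94, 5.39, 5.52, 5.47 and 4.64 in Tat−/Sal and 5.19, 5.97, 4.04, 4.26 and 5.74 in Tat+/Sal. The probe was near the detection limit, with 4, 2, 4 and 3 arrays well above background in the same order. Ccl2 entered the test only through Tat−/Meth, whose mean of 6.10 was the only group mean to reach 6, so the test was open to it only where that group was high. It fell by 1.06 on the log2 scale in Tat+/Meth vs Tat−/Meth (SE 0.361, adjusted *p* = 0.019). Without Tat−/Meth replicate 5 the difference was −0.85 and no longer passed (adjusted *p* = 0.0555), and without Tat−/Meth replicate 1 it was −0.95. Its difference for Tat−/Meth vs Tat−/Sal was 0.71 (SE 0.361, adjusted *p* = 0.11). The receptor Ccr2 was not well above background on any array, with signals of 2.08 to 4.42.

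By adjusted *p* alone, 4 of the 26 genes were higher and 8 lower in Tat+/Meth than in Tat−/Meth, where 16% and 38.5% of all genes were (54.4% in all). The others higher were Ccr7, by 0.98 (adjusted *p* = 0.00305), and Cx3cl1, by 0.21 (0.0342), which turned to −0.01 with quantile normalization. The others lower were Ackr3 (−0.50, 0.00114), Cxcl14 (−0.34, 0.00021), Ccl9 (−0.45, 0.00464), Ccl27a (−0.27, 0.00802), Ccl6 (−0.29, 0.0104) and Ccl25 (−0.29, 0.0289). With no scaling, Ccl27a, Ccl6 and Ccl25 turned to 0.07, 0.05 and 0.05. Ccl19, Ccr7 and Ccr8 had every Tat+/Meth value above every Tat−/Meth value and 5 genes every value below, against 11.2% and 26.8% of all genes.

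Whether the effect of Meth differed with Tat was tested as an interaction, the Meth difference with Tat minus the Meth difference without Tat. This was called for 4 of the 26 genes, 3 higher and 1 lower, where 6.88% of all genes were called higher, 0.563% lower and 7.44% in all. The interaction was 1.91 for Ccl19 (SE 0.242, adjusted *p* = 8.64e-06), 1.87 for Ccr8 (SE 0.24, 1.01e-05), 1.64 for Ccr7 (SE 0.355, 0.00153) and −1.96 for Ccl28 (SE 0.631, 0.0213). By adjusted *p* alone Cxcl14 (−0.40, 0.00223), Ccl9 (−0.57, 0.016), Ackr3 (−0.52, 0.0167) and Ccl6 (−0.37, 0.0259) also passed, so that 3 genes were higher and 5 lower, where 12.4% and 23.6% of all genes were (36% in all).

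The other tested genes, Ccl8, Ccl12, Ccl17, Cxcl16, Ccr6, Ccr10 and Ackr2, passed the adjusted *p* in no comparison. Ccr10, the receptor of Ccl27a and Ccl28, read 6.14 to 6.56 in Tat−/Sal and 5.36 to 6.16 in Tat−/Meth, a difference of −0.50 (SE 0.219, adjusted *p* = 0.0642). Ccl17, a ligand of CCR4, read 6.59 to 8.36 in Tat−/Sal mice and 7.69 to 8.29 in Tat+/Sal mice, while the Meth groups read 7.26 to 8.04 without Tat and 7.29 to 7.81 with it. Ccr6, the receptor of CCL20, lay between 9.37 and 10.49 on all arrays, and Cxcl16 between 5.91 and 7.17.

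Some genes were detected on part of the arrays but were too dim to test. Cxcr1, a receptor of neutrophil attractants, was well above background on 4 Tat−/Sal arrays and on 2 of each Tat+ group, with 4.18 to 5.09 in Tat−/Sal. The Tat+ mice read 4.50 to 6.04 on saline and 4.47 to 5.59 on Meth. In Tat−/Meth it was not well above background on any array, at 2.37 to 3.69. Cxcl9, an interferon-induced ligand of CXCR3 like Cxcl10, was well above background on 3 Tat−/Sal arrays and nowhere else. Its receptor Cxcr3 was seen on 2 Tat−/Sal and 2 Tat+/Meth arrays. Cxcr6, the receptor of Cxcl16, was seen on 4 arrays of each Tat− group, 2 of Tat+/Meth and 0 of Tat+/Sal. The other dim genes, Ccl4, Cxcl5, Cxcl13, Ccr3 and Ccr9, were each seen on at least 5 arrays.

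The inducible CC ligands were low and uneven. Ccl3 read 6.73, 4.52, 5.60, 6.00 and 5.32 in Tat−/Sal, 6.34, 6.16, 6.13, 6.49 and 6.74 in Tat−/Meth, 5.88, 6.08, 5.31, 6.03 and 5.43 in Tat+/Sal, and 4.61, 6.14, 4.79, 6.07 and 6.42 in Tat+/Meth. Only in Tat−/Meth was it well above background on all 5 arrays, and the difference from Tat−/Sal was 0.74 (SE 0.37, adjusted *p* = 0.105). Ccl3 also entered the test only through Tat−/Meth, with a mean of 6.37 against 5.61 to 5.75 in the other groups. Without Tat−/Sal replicate 1 the difference was 1.01 (adjusted *p* = 0.0249), in a test that the high Tat−/Meth mean had opened. Ccl4, like Ccl3 a macrophage inflammatory protein, ranged from 3.05 to 5.61 and was not tested. It was well above background on 3 Tat−/Sal arrays and on 1 array of each Meth group.

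High values of Ccl5 and Cxcl10 came from the same mouse. Ccl5, a T cell and monocyte attractant, read 11.04, 6.74, 6.48, 6.17 and 5.65 in Tat−/Sal. It read 4.70, 5.39, 6.18, 6.45 and 7.27 in Tat−/Meth, 6.49, 6.10, 5.96, 6.43 and 7.51 in Tat+/Sal, and 5.84, 6.19, 5.76, 6.21 and 6.75 in Tat+/Meth. Tat−/Sal replicate 1 stood above every other array. Cxcl10, induced by interferons and read by CXCR3 on T cells, had its highest value on the same array, with 10.02, 6.18, 6.15, 2.82 and 5.50 in Tat−/Sal. It read 6.30, 6.72, 5.79, 3.86 and 5.13 in Tat−/Meth, 6.60, 2.99, 3.47, 3.50 and 3.93 in Tat+/Sal, and 3.29, 3.60, 3.11, 4.13 and 4.71 in Tat+/Meth.

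Ccl12, a mouse ligand of CCR2, was also highest on Tat−/Sal replicate 1, at 8.20, against 6.38 to 6.92 on the other Tat−/Sal arrays and 4.97 to 7.16 in the other groups. The probe of Cxcl10 was well above background on 3 Tat−/Sal arrays, 3 Tat−/Meth arrays, 1 Tat+/Sal array and 0 Tat+/Meth arrays. Against the detection level of the Tat+/Meth arrays, Tat−/Sal mice had at least 1.96-fold more Cxcl10 signal (adjusted *p* = 0.640). That bound rested on replicate 1, since without it the Tat−/Sal mean was 5.16, no higher than the detection level of 5.16, and no fold was left. For Tat−/Meth the bound against the same level was 1.32-fold (adjusted *p* = 0.119). That level was, on each array, the higher of the lowest signal well above background and the probe's own signal.

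Leaving out Tat−/Sal replicate 1 changed what these ligands showed. The difference of Ccl5 between Tat+/Sal and Tat−/Sal went from −0.72 to 0.23 (adjusted *p* = 0.83), and that between Tat−/Meth and Tat−/Sal from −1.22 to −0.27. Cxcl10 went from −2.04 to −1.07 for Tat+/Sal vs Tat−/Sal and from −0.57 to 0.40 for Tat−/Meth vs Tat−/Sal. Cxcl10 had entered the test only through the Tat−/Sal mean of 6.13, and without that array no group mean reached 6. For Tat+/Meth vs Tat−/Meth, where only the bound of 1.32-fold was measured, the adjusted *p* was 0.119. It was 0.0498 with median scaling, 0.0141 with only the groups compared and 0.0328 with the methods' t-test after adjustment. Without that array it was 0.0441, in a fit that kept Cxcl10 although it no longer met the signal limit. All these *p* values rest on Tat+/Meth signals that were well above background on no array, so none is taken as a difference.

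**Figure D5:**
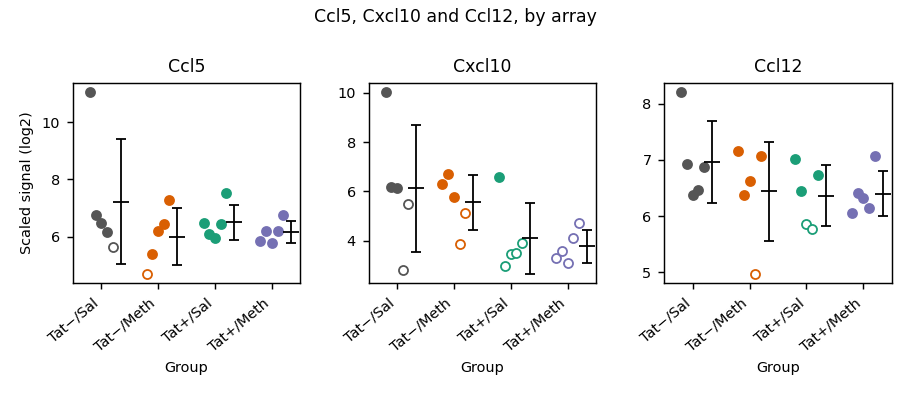
Scaled log2 signal of Ccl5, Cxcl10 and Ccl12 on each array, by group. Open points were not well above background, and bars give the mean ± SD. Tat−/Sal replicate 1 read 11.04, 10.02 and 8.20 and was the highest array for each gene.

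The 250 bases before the gene start are shown for Cxcl10, whose signal stood out on that array, and for the called genes Ccl19 and Ccr8, from RefSeq on GRCm38.p6. They lie at chr5:92348890-92349139 (minus strand), chr4:42756366-42756615 (minus strand) and chr9:120091883-120092132 (plus strand). Capitals mark letters of the interferon-stimulated response element, searched on both strands as GAAANNGAAA, of the NF-kappaB site consensus, and of TATAAA.
Cxcl10: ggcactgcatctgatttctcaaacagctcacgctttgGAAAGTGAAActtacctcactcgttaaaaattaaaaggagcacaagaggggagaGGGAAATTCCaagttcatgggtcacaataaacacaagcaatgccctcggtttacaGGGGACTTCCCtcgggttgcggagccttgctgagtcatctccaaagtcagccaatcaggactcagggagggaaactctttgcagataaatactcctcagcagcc
Ccl19: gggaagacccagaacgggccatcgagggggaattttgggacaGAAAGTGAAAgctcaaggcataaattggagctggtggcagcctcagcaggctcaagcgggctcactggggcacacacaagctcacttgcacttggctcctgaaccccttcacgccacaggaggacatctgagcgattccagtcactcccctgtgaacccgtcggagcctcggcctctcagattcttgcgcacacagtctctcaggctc
Ccr8: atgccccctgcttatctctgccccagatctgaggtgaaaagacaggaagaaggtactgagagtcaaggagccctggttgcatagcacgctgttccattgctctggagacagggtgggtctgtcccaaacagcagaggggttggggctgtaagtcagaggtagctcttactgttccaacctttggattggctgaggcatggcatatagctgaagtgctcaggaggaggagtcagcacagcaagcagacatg

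The interferon element stood as GAAAGTGAAA 213 to 204 bases before the start of Cxcl10 and 208 to 199 bases before that of Ccl19. Cxcl10 also held NF-kappaB letters 159 to 150 bases before its start and in an overlapping pair from 104 to 94. None of these letters was found for Ccr8. Promoters were found for 41 of the 55 genes. The interferon element was in 3 of them, Ccl19, Cxcl10 and Cxcl14, which is 7.32% against 3.46% of 27025 genes. NF-kappaB letters were in 11 (26.8%, against 8.23%) and TATAAA in 11 (26.8%, against 8.94%).

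Markers of some immune cells were also lower where Ccl19, Ccr7 and Ccr8 were lower, in Tat−/Meth, and others were not. The summed signal of 8 T cell genes was 13.43 to 13.69 in Tat−/Meth, against 15.50 to 15.88 in Tat−/Sal, 15.51 to 16.40 in Tat+/Sal and 15.77 to 16.02 in Tat+/Meth. Of the 5 tested, 4 were lower and 1 higher in Tat−/Meth vs Tat−/Sal by adjusted *p*, with a list median of −0.88. Cd4 was at −2.18 (2.32e-10), and a summed signal is carried by the brightest genes of its list. Cd3d, Cd3g and Cd8a were well above background on at most 2 arrays of the 20. The summed signal of 7 neutrophil and bone marrow genes was 10.53 to 12.15 in Tat−/Meth and 14.30 to 15.70 in the other groups. Of the 4 tested, Elane was lower at −4.48 (7.62e-12) and Camp higher at 0.31 (0.0211), and S100a8 and S100a9 were at 0.71 and 0.79 without passing, so the sum and the list median of 0.51 differed in sign. Of 3 monocyte genes tested, only Plac8 passed, lower at −1.41 (0.000189), and the highest difference was 0.37. The monocyte sum was 7.48 to 8.62 in Tat−/Meth and overlapped the other groups, at 7.73 to 9.15. All 5 red blood cell genes had differences above 0, from 0.14 to 0.89, with 1 passing (Alas2, 0.0483). The B cell gene tested, Cd79b, was at 0.47 (0.18), and none of 3 border macrophage genes passed. The summed signal of 12 microglia genes, all detected on every array, was 17.21 to 17.35 in Tat−/Meth and at least 17.67 on every array of the others. In that list 4 genes were higher and 3 lower by adjusted *p*, where 35% of all genes were higher and 15.3% lower. Lower sums were not limited to immune cells. That of pericyte and smooth muscle genes was 12.77 to 13.22 in Tat−/Meth and 13.19 to 13.91 in the other groups. By adjusted *p* only 1 of these 6 genes was lower in Tat−/Meth vs Tat−/Sal and none higher. Their differences ran from −1.15 to 0.27, with a median of 0.19. The summed signal of astrocyte genes was 18.07 to 18.34 against 18.28 to 18.72. Yet 3 of the 7 astrocyte genes were higher and 1 lower by adjusted *p*, with a median of 0.19, so these sums and medians differed in sign. The sums of endothelium and oligodendrocyte genes in Tat−/Meth overlapped those of the other groups widely. The part of these markers in the chemokine values was not tested.

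Genes that act with chemokine receptors were taken from a list of 76 names, of which 73 were on the array and 64 tested. In Tat−/Meth vs Tat−/Sal, 1 of the 64 was called higher and 1 lower, where 0.371% and 6.48% of all genes were. These were Dock2, which links chemokine receptors to Rac in white blood cells (1.09, adjusted *p* = 0.0276), and Rap1a, a small GTPase of integrin activation (−1.95, 1.84e-06). By adjusted *p* alone 25 were higher and 6 lower, where 35% and 15.3% of all genes were. In Tat+/Meth vs Tat−/Meth, Rap1a (1.57) and Tiam1 (1.35), an activator of Rac, were called higher, and Dock2 (−1.20) and the atypical chemokine receptor Gpr182 (−1.02) lower, where 6.75% and 0.470% of all genes were. By adjusted *p* alone 7 were higher and 29 lower, where 16% and 38.5% of all genes were. The interaction was called for Rap1a (1.82) and Gpr182 (−1.28). In Tat+/Sal vs Tat−/Sal only 1 of the 64 passed the adjusted *p*, where 1.42% of all genes did. It was the kinase Mapk3, at 0.34 (0.0185), and these groups shared no slide.

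Of 20 cytokines and other genes known to go with chemokine induction, 9 were bright enough to test, and Tnf, Il1b, Il6 and Ifnb1 were not. The endothelial adhesion molecule Selp was called lower in Tat−/Meth vs Tat−/Sal (−1.70, adjusted *p* = 1.1e-07) and higher in Tat+/Meth vs Tat−/Meth (1.51). Of the 9, Selp was the only one called in either comparison. Over all genes 6.48% were called lower in the first comparison and 6.75% higher in the second. By adjusted *p* alone 2 inducers were higher and 1 lower in the first, where 35% and 15.3% of all genes were. In the second 1 was higher and 2 lower, where 16% and 38.5% of all genes were.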

How the data were processed

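The deposited scanner files hold 1-colour Agilent intensity values, which the authors extracted with Feature Extraction 10.7.3.1 per the file headers (background subtracted and detrended, not scaled between arrays). The study's methods name another dye and scanner than the labels and headers do. Non-uniform and outlier spots (4278) were left out, spots of a probe averaged, and log2 signals scaled to each array's 75th percentile. Symbols came from the probes' RefSeq accessions (27656 of 55681 probes). Genes entered the test when any group mean came to 6 (log2) or more, given at least 3 values in every group. Group means were fitted with limma 3.58.1 in R 4.3.3 over 20 arrays, with Benjamini-Hochberg adjustment over 15102 genes, and called at adjusted *p* under 0.05 and above 2-fold. On simulated data with 200 genes of 15102 changed by −2 in Tat−/Meth vs Tat−/Sal, 98% were recovered with 2 false calls. In the real comparison 50.2% of genes passed the adjusted *p*, and calls were as small as −1.02 (Ccr7). The simulated rates therefore do not describe the calls made here.

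No member probe was saturated. No array repeated another, with correlations within groups of 0.985 to 0.996. The number of arrays limits the precision. Genes shown by array were those called in any comparison, those past an adjusted *p* of 0.05 without Tat−/Meth, the 5 with the highest mean signal, and Ccl2, Ccl3, Ccl4, Ccl5, Cxcl10, Cxcl12, Cx3cl1, Ccr2, Cxcr4, Ackr1 and Ackr3. Ccl12, and the genes named for low counts, were added after their values were seen. The members, lists and tests were chosen with earlier results of these data known. The Cxcl10 bound without 1 array was chosen after seeing the data. Alternatives covered background correction, scaling, filters, probes, slide, thresholds, the deposited series matrix intensity values (7831 values below 1 set to 1), each array left out, and the methods' t-test. With an array left out, the genes tested stayed those of the full set, and the signal limit was not applied again. A gene counted in the totals is not reported here.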

Additional observations from a re-analysis of the deposited data

Results flagged for a closer look

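Among the 26 tested genes, 103 groups were searched for a single array far from the rest of its group, and 7 had one, where chance gives about 1 in 20. Each ratio is the gap to the nearest array over the range of the group.

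Ccl5 was far above its group on Tat−/Sal replicate 1 (11.04 against 5.65 to 6.74, ratio 0.797). The interferon regulator Irf7, which was not tested, read 7.93 on the same array and 4.74 to 6.18 on the others of the group. Ccl8 stood out on Tat+/Sal replicate 4 (8.08 against 5.94 to 6.34, ratio 0.812) and Ccr10 on Tat+/Sal replicate 5 (7.54 against 6.07 to 6.33, ratio 0.825). Cxcl10 stood out on Tat+/Sal replicate 1 (6.60 against 2.99 to 3.93, ratio 0.741), the only array of that group on which it was well above background. Cxcl16, a transmembrane ligand of CXCR6, was low on Tat−/Sal replicate 2 (6.26 against 6.53 to 6.61, ratio 0.762). Cxcr4 was high on Tat−/Meth replicate 5 (7.48 against 5.70 to 6.02, ratio 0.821) and low on Tat+/Meth replicate 1 (4.78 against 5.92 to 6.31, ratio 0.742).

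The effect of Meth differed between Tat+ and Tat− mice for 4 genes by the limma interaction. The differences were 1.91 for Ccl19 (adjusted *p* = 8.64e-06), 1.87 for Ccr8 (1.01e-05), 1.64 for Ccr7 (0.00153) and −1.96 for Ccl28 (0.0213). All hold the Tat−/Meth arrays, which shared a slide with no other group. For Ccl28 the Meth difference was −1.16 with Tat (limma adjusted *p* = 0.312) and 0.80 without (0.143). For Ccr7 it was 0.62 with Tat (0.336) and −1.02 without (0.00258). The differences with Tat thus did not pass, and some Tat+/Meth arrays lay on another slide than Tat+/Sal.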

How the results depend on the processing

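No called value changed sign under any setting for the probe that stood for a gene or the mean over its probes. Another Ccl19 probe on its own went the other way (0.51 and −0.45). For Tat−/Meth vs Tat−/Sal the count of 3 calls went to 8 by adjusted *p* alone and 1 with the mean over probes. With no filter it was 5, which adds Ccl24 and Cxcr1. Ccl24 was well above background on 1 array only and Cxcr1 on no Tat−/Meth array, so neither is taken as a difference. In Tat+/Meth vs Tat−/Meth the count of 4 went to 12 by adjusted *p* alone and 2 with the mean over probes. It was 1 with normexp and 1 at adjusted *p* under 0.01 and 3-fold. The interaction (4) went to 8 by adjusted *p* alone and 2 with the mean over probes, where the mean of Ccr8 with its undetected probe was too dim to test. In Tat+/Meth vs Tat+/Sal, the methods' t-test at unadjusted *p* gave 1, Ccl28, and 0 after adjustment. Leaving out each array gave 2 to 4 for Tat−/Meth vs Tat−/Sal, 3 to 5 for Tat+/Meth vs Tat−/Meth, 4 for the interaction and 0 elsewhere. With the replicate numbers of the titles as a block, the counts were 3, 4 and 4 for these and 0 elsewhere. Same-numbered arrays deviated together by −0.176 to 0.358, and 8 of 20 correlated best with their own number, so the numbers were not taken as pairs.

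Under normexp, Ccl2, Ccl28 and Ccr8 fell under 2-fold in Tat+/Meth vs Tat−/Meth (−0.50, −0.94 and 0.82). Ccl2 did so with the series matrix (−0.81). Ccr7 fell under 2-fold in Tat−/Meth vs Tat−/Sal with median scaling (−0.90), normexp (−0.69) and the series matrix (−0.89), and passed in Tat+/Meth vs Tat−/Meth with no scaling (1.32). The interaction of Ccl28 had an adjusted *p* of 0.0594 with no scaling, and its Tat+/Meth vs Tat−/Meth call was lost with the methods' t-test after adjustment (0.0587). Without Tat−/Meth replicate 4, Ccl28 passed for Tat−/Meth vs Tat−/Sal (1.24). A fixed slide block could not be fitted for comparisons with Tat−/Meth. Dim probes such as those of Ccl2 and Cxcl10 are limited by signal over background. The cause of these changes was not tested.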
